A study of Homo sapiens with 2 samples.

Results

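The barcodes described here are those in which over 20% of the gene UMIs (unique molecular identifiers, each a count of 1 captured RNA molecule) came from genes encoded by mitochondrial DNA and in which at least 500 genes were detected. They numbered 1307 of the 5269 barcodes of the gene expression library, or 24.8% (exact Clopper-Pearson 95% interval 23.6 to 26.0%). They were set against 3538 comparison barcodes with a mitochondrial share of at most 20% and at least 1000 detected genes, and 424 barcodes fell in neither class. The members were thus chosen by their own counts, and every difference between the classes is a description with no test.

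The cells were OVCAR5, a human ovarian carcinoma line, grown as tumours in NSG-b2m-/- mice, an immunodeficient strain that lacks beta-2 microglobulin. Tumours were digested with Liberase and DNase I, and the cells were cultured ex vivo for 6 h, labelled with hashtag antibodies, pooled and sorted for CFP, named in the labels as marking bystander cells of the tumour. The line expressed a sensor of IFN-gamma (interferon gamma, a T cell cytokine that induces antigen presentation). The labels name 15 conditions, 5 with 100 ng/ml IFN-gamma and 10 ng/ml tumour necrosis factor alpha (TNF), 5 with 10 ng/ml TNF alone and 5 unstimulated, and they give 5 tumours in the pool. The matrix holds human genes only, and whether any reads of host mouse cells were counted in it was not tested. The tumour cells are of 1 line in 1 sequencing pool. No label pairs a hashtag with a treatment. A barcode was therefore placed only in a hashed sample, meaning 1 of 15 pairs of hashtags (a barcode's 2 highest, where the second had 10 counts or more and exceeded the third at least 3-fold), and no cytokine group was assigned from expression.

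Mitochondrial DNA encodes 13 proteins of the respiratory chain, and their mRNAs are made and kept inside the organelle. All other proteins, including most respiratory chain subunits and the whole protein part of the mitochondrial ribosome, are encoded in the nucleus and their mRNAs are translated in the cytosol or at the endoplasmic reticulum. In droplet data a high mitochondrial share is widely used to set barcodes aside as damaged or dying cells. Whether the cells here were damaged was not tested.

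A clear hashtag pair was found in 1188 members (90.9%) and in 3144 comparison barcodes (88.9%). The hashed samples held 30 to 230 members (median 65) and 49 to 630 comparison barcodes (median 147). Summed non-mitochondrial UMIs per hashed sample ranged between 139926 and 1111450 in members. Levels below are summed counts per 10000 non-mitochondrial UMIs. A ratio is the members' count over the count expected from the comparison barcodes of the same hashed samples, and its 95% interval covers counting error only. All 5269 cell barcodes were distinct within the pool.

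Members had a median of 5853 UMIs and 1690 genes, against 11555 UMIs and 3234 genes in comparison barcodes. The difference lay in the nuclear-encoded RNA. Averaged over the same mix of hashed samples, members held 4704 UMIs of nuclear genes per barcode, against 10575 in comparison barcodes, a ratio of 0.445 that ranged between 0.362 and 0.505 over hashed samples and was below 1 in 15 of 15. The rule fixes much of this, since it selects on the balance of both kinds of RNA. Mitochondrial UMIs were 2145 per member, against 1594 per comparison barcode, a ratio of 1.35 (above 1 in 15 of 15). Fewer cells per droplet, smaller cells and less RNA captured per cell cannot be told apart from these counts.

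**Figure D1:**
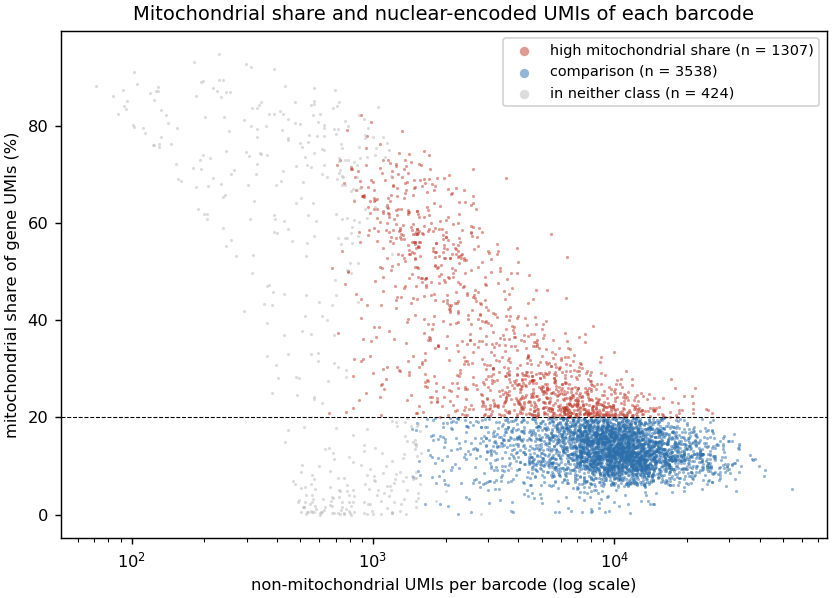
Each point is 1 barcode, with its non-mitochondrial UMIs on the horizontal axis (log scale) and its mitochondrial share in percent on the vertical axis. The 1307 members (red) lie above the line at 20%, the 3538 comparison barcodes (blue) below it, the 424 in neither class are grey, and the members of highest share have the fewest non-mitochondrial UMIs.

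Hashtag counts, which come from the second library and from antibodies on the cell surface, were not used by the rule. Their median was 1102 in members and 1385 in comparison barcodes. Within hashed samples the ratio of the medians lay between 0.672 and 0.974 with a median of 0.846, while that of non-mitochondrial UMIs lay between 0.299 and 0.493 with a median of 0.369. Hashtag counts were thus lower by less than nuclear RNA in all hashed samples, and the ranges of the 2 ratios did not overlap. The rule selects on nuclear RNA and not on hashtag counts, so this order was largely set by the rule. The third hashtag, a measure of mixed or free tags, made up a median of 0.824% of hashtag counts over hashed samples in members and 0.636% in comparison barcodes. Over the 4845 barcodes of both classes, Spearman's rho of the mitochondrial share was -0.11 with hashtag counts and -0.51 with non-mitochondrial UMIs, which share the denominator of the mitochondrial share.

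The genes that mark the class are the rule itself. MT-CO2, a subunit of cytochrome c oxidase, made up 5.10% of all gene UMIs in members (4.68 to 5.84% over hashed samples) and 2.26% in comparison barcodes (2.12 to 2.39%). MT-ATP6, a subunit of ATP synthase, made up 5.39% in members and 2.07% in comparison barcodes. MT-CYB, the cytochrome b of complex III, made up 3.34% in members and 1.36% in comparison barcodes.

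The make-up of the mitochondrial RNA is not fixed by the rule, and it was close in both classes. MT-ND6, a complex I subunit and the only protein encoded on the light strand, stood furthest apart, at 0.148% of mitochondrial UMIs in members and 0.113% in comparison barcodes. Its ratio was 1.31 (1.26 to 1.37) and it was higher in 15 of 15 hashed samples. MT-ATP6 made up 17.2% of mitochondrial UMIs in members and 15.8% in comparison barcodes, a ratio of 1.09 that was above 1 in all 15. MT-CO1, the catalytic subunit of cytochrome c oxidase, made up 13.1% in members and 14.5% in comparison barcodes, a ratio of 0.901 that was below 1 in all 15. MT-CO2 was lower by less, with a ratio of 0.943, also in 15 of 15. The other 9 ratios lay between 0.954 and 1.06.

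The label was also checked against cell type markers. Epithelial genes were present at a level of 67.9 in members and 72.8 in comparison barcodes, a ratio of 0.932 that was below 1 in 9 of 15 hashed samples. Of 8 filtered epithelial genes 1 was called lower and 0 higher. EPCAM, an epithelial adhesion molecule, had a level of 5.77 in members and 4.83 in comparison barcodes. KRT18, a keratin of simple epithelia, had 25.6 in members and 27.8 in comparison barcodes. Markers of T or NK cells summed to 0.0251 in members and 0.00463 in comparison barcodes, and those of B cells to 0.0322 in members and 0.0155 in comparison barcodes. Fibroblast markers summed to 0.0537 in members and 0.0280 in comparison barcodes, with COL1A1 at 0.0376 and 0.0205 in the same order. Myeloid markers summed to 0.734 in members and 0.619 in comparison barcodes, endothelial ones to 0.705 and 0.592 in the same order, the last mostly from EGFL7. The erythroid list had 3 counts in members and none in comparison barcodes. The myeloid sum came mostly from CD68, with 0.360 in members and 0.351 in comparison barcodes, and LYZ, with 0.254 and 0.163 in the same order, while CSF1R had no count in members and 0.000669 in comparison barcodes. CD3E, NKG7 and KDR had no count in either class, and EGFL7 had 0.633 in members and 0.564 in comparison barcodes. By these markers both classes were epithelial, and the part of CD68, LYZ and EGFL7 in the results was not tested. The epithelial ratio was not even along the mitochondrial share of members. It was 1.00 between 20% and 30%, 0.82 between 30% and 50% and 0.53 above 50%. Above 50% the epithelial level was 38.3, and the ratio was below 1 in 15 of 15 hashed samples.

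The share of members differed between hashed samples. Among barcodes of both classes it was 27.4% over all hashed samples (exact interval 26.1 to 28.8%), with 21.8% in HTO2+HTO7 (18.1 to 26.0%), a median of 30.2%, and 39.8% in HTO3+HTO9 (29.5 to 50.8%). The highest shares, 35.4 to 39.8%, were those of the 4 hashed samples with the fewest barcodes (79 to 113 each). The other 11, with 189 to 860 barcodes each, held 21.8 to 31.1%. Every hashed sample below 23% carried HTO2, namely HTO2+HTO5 at 22.3%, HTO2+HTO6 at 22.3% and HTO2+HTO7 at 21.8%, although HTO2+HTO8 and HTO2+HTO10 held 31.0% and 30.7%.

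**Figure D2:**
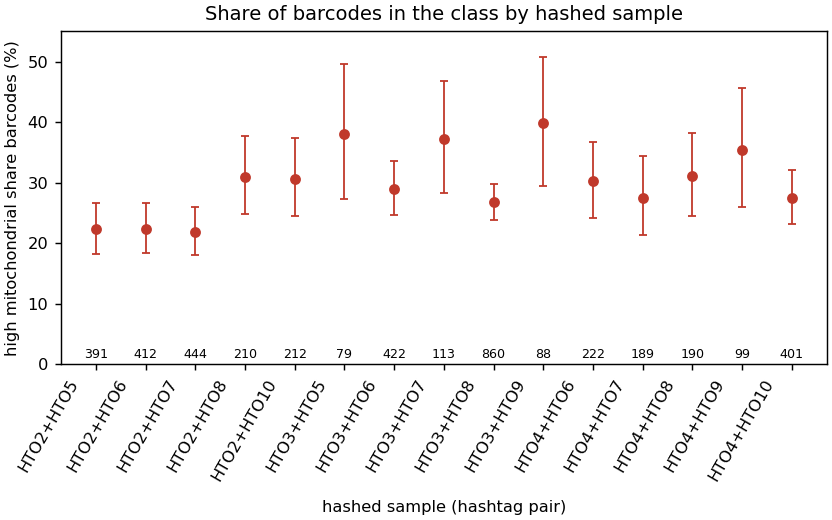
Share of high mitochondrial share barcodes among barcodes of both classes (percent, vertical axis) in each of 15 hashed samples (horizontal axis). Bars are exact 95% binomial intervals, and the numbers at the base count the barcodes of both classes. The 4 hashed samples of 79 to 113 barcodes have the 4 highest shares and wide intervals.

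Whether the share differed with cytokine treatment could not be answered, since treatments are not paired with hashtags. As values beside the share, the summed level of the IFN-gamma response list in comparison barcodes was 398 in HTO2+HTO7, which had the lowest share, and 278 in HTO3+HTO9, which had the highest. It was 14.9 in HTO2+HTO5 and 11.96 in HTO3+HTO7, whose shares were 22.3% and 37.2%. The level of the TNF and NF-kB response list in comparison barcodes was 131 in HTO2+HTO7, 124 in HTO3+HTO9, 15.7 in HTO2+HTO5 and 22.6 in HTO3+HTO7. Low and high shares were thus both found among hashed samples with low and with high cytokine response levels.

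Of the nuclear-encoded genes, 3151 had a mean level of at least 0.5 over both classes. A gene was called when its ratio was at least 1.5-fold from 1 and at least 11 of 15 hashed samples lay on that side. By this rule 161 genes (5.11%) were lower and 43 (1.36%) were higher in members, together 6.47%. Genes can pass the level filter through their level in a single class, so these counts are not independent of it. The median ratio over all 3151 genes was 0.921, that is, -0.12 on the log2 scale. With all gene UMIs as the total, which include the mitochondrial ones, that median was -0.46 and 863 genes were called lower and 13 higher. With ratios centred on the median gene, 53 were lower and 94 higher. Of the called genes, 100 of the lower ones were lower in all 15 hashed samples and 22 of the higher ones were higher in all 15. Among all 3151 genes, 308 were lower and 71 higher in all 15. The call itself asks for at least 11 of 15 on its side, so called genes were selected for such agreement.

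A higher ratio did not mean more molecules. Only 6 of the 3151 genes had at least as many UMIs per barcode in members as in comparison barcodes. Of these, 5 were MTRNR2L genes, nuclear copies of a mitochondrial ribosomal RNA. The other was LUCAT1, a long noncoding RNA first described in lung cancer, with a ratio per barcode of 1.07. MALAT1 came next to these at 0.97 per barcode. The median gene had 0.409 times as many UMIs per member as per comparison barcode. Most of the higher genes were thus also fewer per barcode, but by less than the median gene. The 5 MTRNR2L genes together had a level of 176 in members and 49.4 in comparison barcodes, a ratio of 3.57 (2.78 to 5.00 over hashed samples), but their near identity to mitochondrial RNA leaves their counts uncertain.

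The clearest group among transcripts with a higher ratio was long noncoding RNA. MALAT1, a nuclear-retained RNA of nuclear speckles (GRCh38 chromosome 11, 65497688 to 65506516, plus strand), had a level in members of 485 in the lowest hashed sample, 555 in the median and 715 in the highest. In comparison barcodes it had 219, 266 and 323 in the same order. The lowest member value lay above the highest comparison value, and the ratio was 2.18 (2.17 to 2.19), with 1.83 to 2.78 over hashed samples. A high level was not particular to the class. The 166 barcodes with at most 20% mitochondrial share and under 1000 genes had 728, beside 597 over all members of hashed samples.

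NEAT1, the scaffold of nuclear paraspeckles (chromosome 11, 65422774 to 65445540, plus strand), had 36.3, 50.7 and 85.8 in members as lowest, median and highest. In comparison barcodes it had 21.5, 28.1 and 48.1. The ranges overlapped between hashed samples, but members were higher within each of the 15, at a ratio of 1.76 (1.74 to 1.79). LUCAT1 (chromosome 5, 91054834 to 91314547, minus strand) had 1.65, 2.70 and 5.80 in members and 0.652, 1.24 and 2.33 in comparison barcodes. Its ratio of 2.37, with 1.33 to 3.47 over hashed samples, led the called genes other than the MTRNR2L copies.

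The remaining long noncoding RNAs among the 12 highest were GABPB1-AS1, with a level of 2.12 in members and 1.15 in comparison barcodes, and HCG18, with 1.02 in members and 0.555 in comparison barcodes. LUCAT1, GABPB1-AS1, HCG18 and KCNQ1OT1, which is described with its list, are annotated as antisense, and the sources used here do not state whether counting used strand, so reads of genes on the other strand cannot be told apart. As a class, long noncoding genes summed to 838 in members and 438 in comparison barcodes, a ratio of 1.91 that was above 1 in 15 of 15 hashed samples. Without MALAT1 and NEAT1 the ratio was 1.40 (1.20 to 1.63, higher in 15). Of 43 long noncoding genes that passed the level filter 7 were called higher and 0 lower, while of 3108 protein-coding genes 36 were higher and 161 lower.

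The other 7 of the 12 highest genes code for proteins. FN1 encodes fibronectin, a secreted glycoprotein of the extracellular matrix (chromosome 2, 215360440 to 215436172, minus strand). Its level in members was 9.08, 12.8 and 15.7 in the lowest, the median and the highest hashed sample. In comparison barcodes it was 5.23, 6.51 and 9.29. Members were higher in 15 of 15, although the highest comparison value exceeded the lowest member value, and the ratio was 1.97 (1.92 to 2.02).

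The other matrix or secreted proteins were COL9A3, a chain of collagen IX, LTBP3, which binds latent TGF-beta, and MUC5B, a gel-forming mucin. COL9A3 had a level of 1.10 in members and 0.574 in comparison barcodes. LTBP3 had 2.46 in members and 1.39 in comparison barcodes. Both were higher in 15 of 15 hashed samples, whereas MUC5B, with 1.03 in members and 0.539 in comparison barcodes, was higher in 12. The remaining 3 encode enzymes bound to membranes. They were RDH10, a retinol dehydrogenase, at a ratio of 1.91, ST3GAL5, a sialyltransferase of ganglioside synthesis, at 1.90, and CPD, a carboxypeptidase of the Golgi, at 1.90, each higher in 15 of 15.

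**Figure D3:**
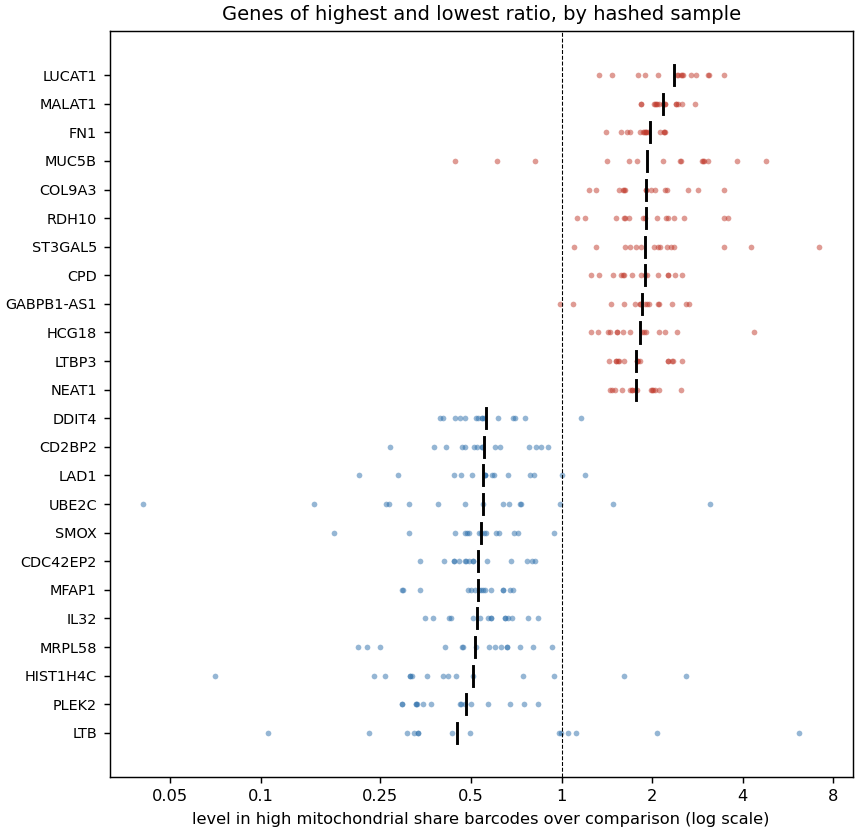
Ratio of the level in high mitochondrial share barcodes to that in comparison barcodes (log scale) for the 12 genes of highest ratio (red) and the 12 of lowest ratio (blue). Dots are hashed samples (ratios of 0 are not drawn) and black ticks are the ratios standardised over hashed samples. MALAT1, FN1, LTBP3 and NEAT1 lie above 1 in all 15, while MUC5B, LTB, HIST1H4C and UBE2C spread over both sides.

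At the low end the genes had mixed functions. IL32, a cytokine induced by inflammatory signals (chromosome 16, 3065297 to 3082192, plus strand), had in members 0.391, 1.52 and 11.5 as lowest, median and highest over hashed samples. In comparison barcodes it had 0.554, 2.61 and 18.6. Its level varied widely between hashed samples in both classes, yet members were lower within each of the 15, at a ratio of 0.52 (0.50 to 0.55). LTB, a membrane-bound cytokine of the TNF family, had 0.850 in members and 1.89 in comparison barcodes, the lowest ratio of all called genes at 0.45, but was lower in only 11.

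PLEK2, a protein with pleckstrin domains that acts at the actin cytoskeleton, had a level of 0.412 in members and 0.856 in comparison barcodes. MRPL58, a peptide release factor built into the mitochondrial ribosome, had 0.426 in members and 0.825 in comparison barcodes, and its highest member value of 0.608 lay below its lowest comparison value of 0.616. MFAP1, a spliceosome component, had 0.490 in members and 0.932 in comparison barcodes, and its hashed samples did not overlap either. All 3 were lower in 15 of 15. Their levels in members were below 0.5, so they passed the filter only through comparison barcodes, and their low ratios are not independent of it.

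Of the other 7, CDC42EP2, an effector of the GTPase CDC42, SMOX, which oxidises spermine, and CD2BP2, which binds the spliceosome, were lower in 15 of 15 at ratios of 0.53, 0.54 and 0.55. DDIT4, an inhibitor of mTORC1 induced by stress, was lower in 14 at 0.56. LAD1, an anchoring filament protein, HIST1H4C, a histone H4 gene with near-identical copies, and UBE2C, a ubiquitin-conjugating enzyme of mitosis, were each lower in 13, at 0.55, 0.51 and 0.55. UBE2C reversed to 1.70 when comparison barcodes were matched to the members' depth. CDC42EP2, CD2BP2, LAD1 and UBE2C also had levels below 0.5 in members and passed the filter only through comparison barcodes.

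The gene lists group these transcripts by where their mRNAs or proteins act. The list of nuclear long noncoding RNAs had a summed level of 659 in members and 310 in comparison barcodes, a ratio of 2.13 that was above 1 in all 15 hashed samples, mostly from MALAT1 and NEAT1, the 2 of its 7 filtered members that were called. Of all genes 1.36% were called higher. KCNQ1OT1, a nuclear RNA of an imprinted region, had 2.39 in members and 1.65 in comparison barcodes and missed the call. mRNAs that are enriched in the nucleus or hold detained introns had 15.6 in members and 12.7 in comparison barcodes, a ratio of 1.23 (higher in 13 of 15), with 0 of 8 called. That list's ratio was 0.970 with all gene UMIs as the total.

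mRNAs of secreted and membrane proteins, which are translated at the endoplasmic reticulum, had 162 in members and 139 in comparison barcodes. The ratio was 1.17 (1.16 to 1.17), above 1 in all 15, with 3 of 40 called higher and 1 lower, and it was 0.922 with all gene UMIs as the total. The shares over all genes were 1.36% higher and 5.11% lower. Besides FN1, the genes called higher included PSAP, a lysosomal activator of lipid breakdown, with 3.50 in members and 2.31 in comparison barcodes. PLAU, the urokinase protease, was lower at a ratio of 0.61. Chaperones of the endoplasmic reticulum differed little, with 86.0 in members and 85.1 in comparison barcodes and 0 of 22 called.

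mRNAs of cytosolic and cytoskeletal proteins had 717 in members and 825 in comparison barcodes, a ratio of 0.869 that was below 1 in all 15 hashed samples. Of 44 members 2 were called lower and 0 higher, a share near the 5.11% of all genes called lower. These were KRT7, a keratin of ductal epithelia, at 0.57, and TUBB4B, a beta tubulin, at 0.63. FTH1, the ferritin heavy chain, had 95.3 in members and 126 in comparison barcodes and was below 1 in all 15 without passing the fold. TMSB4X, which binds free actin, had 48.6 in members and 48.3 in comparison barcodes.

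Cytosolic ribosomal protein mRNAs did not follow this direction over all members. Their summed level was 1606 in members and 1570 in comparison barcodes, a ratio of 1.02 (0.961 at the lowest, lower in 7 and higher in 8 hashed samples), and 0 of 82 genes were called. RPL13 had 62.6 in members and 59.7 in comparison barcodes, and RPLP1 had 65.2 and 64.6 in the same order.

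**Figure D4:**
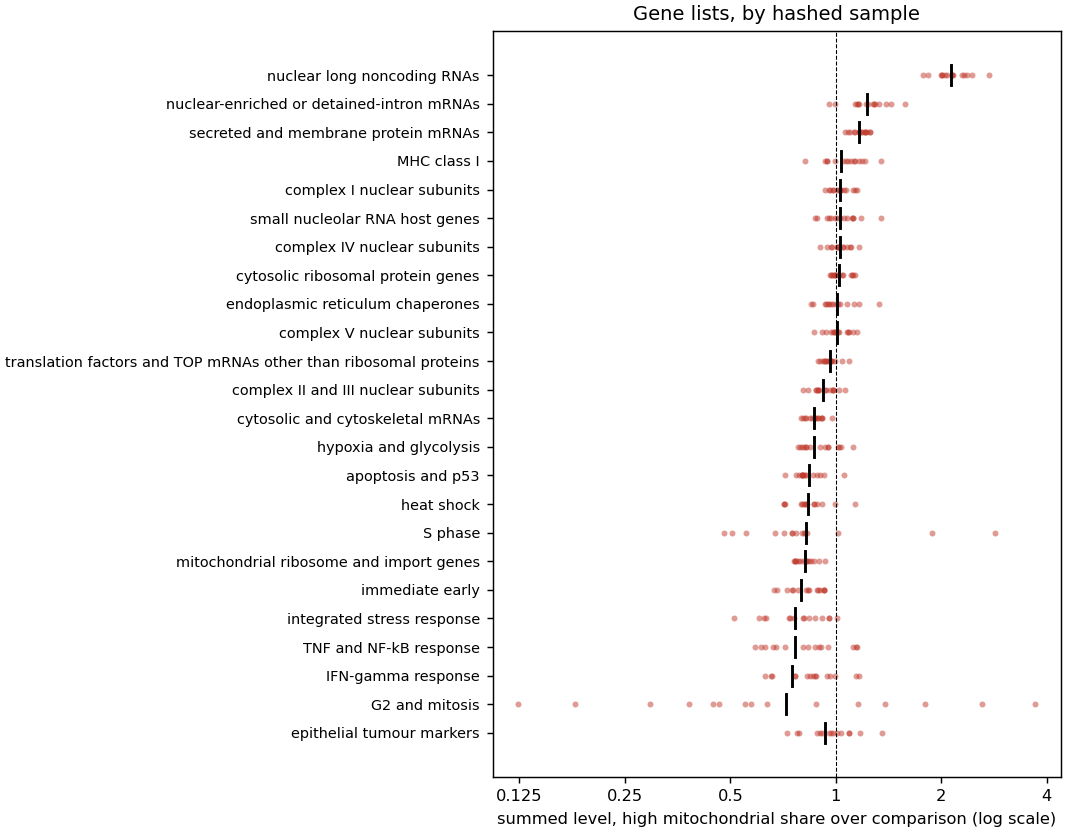
Ratio of the summed level of each gene list in high mitochondrial share barcodes to that in comparison barcodes (log scale). Dots are hashed samples and black ticks the standardised ratios. Nuclear long noncoding RNAs lie above 1 in all 15, mitochondrial ribosome and import genes below 1 in all 15, and the mitosis list spreads between 0.124 and 3.69.

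Among nuclear genes for mitochondrial proteins, lists of the respiratory chain lay closer to 1 over the whole class than that of the mitochondrial ribosome. The order was the reverse above a mitochondrial share of 50%, as given below. Nuclear subunits of complex I summed to 82.7 in members and 80.4 in comparison barcodes, those of complex IV to 46.4 and 45.3 in the same order, and those of complex V to 54.98 and 54.5, with no gene called in any of these lists of 31, 11 and 17 genes. Nuclear subunits of complexes II and III, whose list holds cytochrome c too, summed to 33.0 in members and 35.9 in comparison barcodes, a ratio of 0.921 that was below 1 in 13 of 15, with 0 of 14 called. Genes of the mitochondrial ribosome and of protein import summed to 70.2 in members and 85.9 in comparison barcodes. Their ratio was 0.817, below 1 in all 15 hashed samples, and 6 of 36 genes were called lower and 0 higher, beside 5.11% lower over all genes.

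The genes called lower in that list were MRPL3, MRPL12, MRPL14, MRPL36 and MRPS12, proteins of the mitochondrial ribosome, and TIMM17A, a subunit of the inner membrane import channel. MRPL12 had 0.832 in members and 1.45 in comparison barcodes. Over all genes with an MRPL or MRPS symbol, 12 of 55 were called lower and 0 higher, beside 5.11% of all genes called lower. HSPD1, the chaperonin of the mitochondrial matrix, had 9.24 in members and 11.7 in comparison barcodes. CYCS, cytochrome c, had 5.41 in members and 7.70 in comparison barcodes, a ratio of 0.70 that was below 1 in all 15 and did not pass the fold.

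Cytokine response genes were lower in members of most hashed samples, and more so where the response level was high. The IFN-gamma list had 96.7 in members and 129 in comparison barcodes, a ratio of 0.747 (0.741 to 0.754) that was below 1 in 13 of 15 and ranged between 0.626 and 1.16. In hashed samples where comparison barcodes had a level of 278 to 405, the ratio was 0.626 to 0.843. Where they had 11.8 to 34.1 it was 0.766 to 1.16, so the summed ratio rests mostly on hashed samples of high level. Of the list's 24 filtered genes 1 was called lower, beside 5.11% of all genes. It was GBP1, an IFN-induced guanylate-binding protein, with 8.68 in members and 13.3 in comparison barcodes. IRF1, a transcription factor that drives many IFN-gamma target genes, had 11.1 in members and 15.3 in comparison barcodes. CXCL10, a T cell chemokine, had 19.9 in members and 29.5 in comparison barcodes, but was lower in only 8 of 15.

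The TNF and NF-kB list had 69.3 in members and 90.9 in comparison barcodes, a ratio of 0.763 that was below 1 in 12 of 15 (0.587 to 1.15). Where comparison barcodes had a level of 88.6 to 149, the ratio was 0.587 to 0.892. In hashed samples where they had 15.5 to 22.6 it was 0.905 to 1.15, and the reason was not tested. Of the list's 21 filtered genes 6 were called lower and 0 higher, beside 5.11% lower and 1.36% higher over all genes. They were IL32, LTB, PLAU, RELB, a subunit of NF-kB, and TNIP1 and TNIP2, which restrain NF-kB signalling. TNIP1 had 2.81 in members and 5.00 in comparison barcodes and was lower in 15 of 15. NFKBIA, the inhibitor that holds NF-kB in the cytosol, had 9.19 in members and 13.1 in comparison barcodes. The MHC class I list stayed close, with 98.1 in members and 94.7 in comparison barcodes, and B2M had 47.8 and 48.0 in the same order.

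Heat shock genes had a ratio of 0.831, with HSPA8, the constitutive cytosolic HSP70, at 4.34 in members and 7.44 in comparison barcodes, and DNAJA1, its co-chaperone, at 4.48 and 6.87 in the same order, as the 2 genes called lower of 8. Immediate early genes had a ratio of 0.798, below 1 in all 15, with FOSL1, an AP-1 subunit, and BTG1, an inhibitor of proliferation, called lower of 9. The integrated stress response list had 0.766, with DDIT3 and DDIT4 called lower of 8. The apoptosis and p53 list had 0.839, with CDKN1A, which arrests the cell cycle, and BIK, which promotes apoptosis, called lower of 9. Glycolysis and hypoxia genes had 0.867 with 0 of 16 called. Beside these counts, 5.11% of all genes were called lower, and lists of so few genes were not tested against that share.

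Cell cycle lists could not be read as a single value. The S phase ratio was 0.823 and that of G2 and mitosis 0.720, with a range of 0.124 to 3.69 over hashed samples. When comparison barcodes were matched in depth, the same ratios were 1.34 and 2.62. The depth-matched set kept 2051 comparison barcodes with a median of 8326 non-mitochondrial UMIs, still above that of members.

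The class was not uniform along the mitochondrial share. Members were split at 30% and 50%, after the values of the whole class were known, and comparison barcodes at 10% and 15%. The 6 ranges held 661, 1417, 1066, 631, 273 and 284 barcodes, the last 3 being members. Their median non-mitochondrial UMIs were 10333, 10574, 9162, 6239, 2792 and 1491. Their median mitochondrial UMIs were 909, 1502, 1870, 1906, 1832 and 2329, and their median hashtag counts 1274, 1429, 1321, 1087, 1092 and 1145. From 20% upward, nuclear RNA was lower at each step while hashtag counts stayed near the same value. The split itself selects on nuclear RNA and not on hashtag counts.

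MALAT1 stood at 0.91, 0.99, 1.08, 1.39, 3.56 and 6.97 times the level of all comparison barcodes over the 6 ranges. In UMIs per barcode it had 273, 301, 282, 258, 309 and 304, so the count per barcode hardly moved while the rest of the nuclear RNA was lower. Above 50% the ratio lay between 5.97 and 8.48 over hashed samples, which had 5 to 40 such barcodes each. NEAT1 had 26.9, 35.2, 34.9, 26.8, 23.9 and 26.5 UMIs per barcode, and its ratio reached 5.26 in the last range. mRNAs with detained introns had 0.91 between 20% and 30%, lower in 13 of 15, but 1.77 between 30% and 50% and 3.13 above 50%, higher in all 15 in both.

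The ratio of FN1 over the 6 ranges was 0.71, 0.97, 1.25, 1.78, 2.42 and 2.97, higher at each step, as was that of MALAT1. Its UMIs per barcode were 5.17, 7.16, 8.02, 8.15, 5.22 and 3.19, highest between 15% and 30%. Differences between ranges were thus also found among the comparison barcodes. Secreted and membrane protein mRNAs stood at 1.09, 1.43 and 1.36 in the 3 member ranges.

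Ribosomal protein mRNAs moved in opposite directions within the class. Their ratio was 1.14 between 20% and 30% (1.04 to 1.30, higher in all 15 hashed samples), 0.83 between 30% and 50% and 0.35 above 50% (0.267 to 0.467, lower in all 15). In UMIs per barcode they had 1754, 1724, 1530, 1203, 414 and 89.2 over the 6 ranges. The value near 1 over the whole class is therefore a sum of both directions. Complex I subunits behaved alike, with 1.13 (higher in all 15), 0.85 and 0.38 (lower in all 15) in the 3 member ranges. Above 50%, the list of complexes II and III stood at 0.39 and those of complexes IV and V at 0.33 each. Mitochondrial ribosome and import genes stood at 0.49 there, closer to 1 than these. Cytosolic and cytoskeletal mRNAs stood at 0.97, 0.66 and 0.31 in the 3 member ranges.

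**Figure D5:**
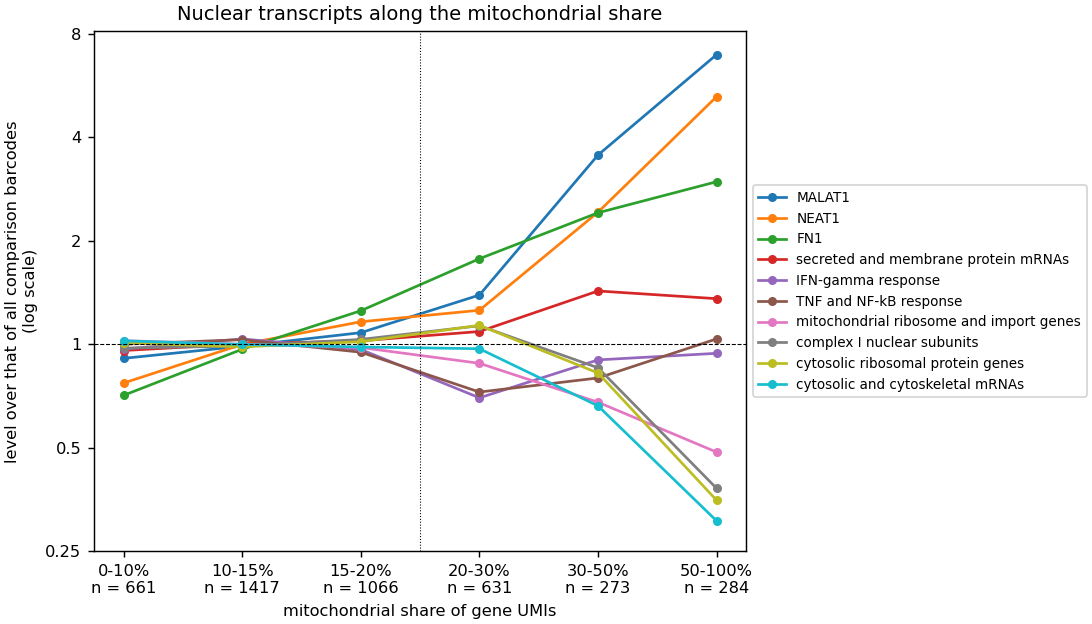
Level relative to all comparison barcodes (log scale, vertical axis) of 3 genes and 7 gene lists in 6 ranges of the mitochondrial share (horizontal axis, with the number of barcodes). The dotted line marks 20%, the limit of the class. MALAT1 reaches 6.97 and ribosomal protein mRNAs 0.35 above 50%, while the cytokine response lists are lowest between 20% and 30%.

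The cytokine lists followed another course. The IFN-gamma list stood at 0.70 between 20% and 30% (0.556 to 1.13, lower in 14 of 15), at 0.90 between 30% and 50% and at 0.94 above 50% (lower in 7 and higher in 8). The TNF and NF-kB list stood at 0.73, 0.80 and 1.04, lower in 12, 11 and 4 of 15. The members between 20% and 30% thus had the lowest levels, and those above 50%, with the least RNA, were close to the comparison barcodes. Whether the differences between these ranges exceed chance was not tested.

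Above 50% the calls covered most lists. Of 3295 genes past the filter there, 1330 (40.4%) were lower and 588 (17.8%) higher by the same rule. Ribosomal protein genes were called lower in 80 of 82 cases and cytosolic or cytoskeletal genes in 44 of 44, and 0 genes of either list were higher. Of the 43 long noncoding genes that passed the filter over the whole class, 27 were higher and 4 lower, and of 41 secreted and membrane protein genes 20 were higher and 1 lower. All 9 filtered detained-intron mRNAs were higher. Genes can pass this filter through their level in a single class, so the counts of lower and of higher genes are not independent of it.

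Several genes were named after their values above 50% were seen. FABP4, a fatty acid carrier of the cytosol, had the lowest ratio there, with 0.305 in members (14 counts) and 3.12 in comparison barcodes, although its ratio over the whole class was 0.97. LGALS1, a galectin, had 0.958 in members and 5.75 in comparison barcodes. MIF, a small cytokine kept in the cytosol, had 3.94 in members and 20.4 in comparison barcodes, and TMSB4X had 9.34 and 48.1 in the same order. All 4 were lower in 15 of 15 hashed samples. Among the highest was ANKRD10-IT1, an intronic transcript, with 1.07 in members and 0.135 in comparison barcodes. It passed the filter only through its level in members, so its high ratio is not independent of the filter. FABP4 likewise passed only through its level in comparison barcodes.

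With a mitochondrial share over 30%, 948 of 3251 genes (29.2%) were lower and 412 (12.7%) higher. There too genes can pass the filter through their level in a single class, so neither count is independent of it. MRPL3 had 0.354 in members and 1.16 in comparison barcodes, the lowest ratio there at 0.31. Of the 161 genes lower over the whole class 136 were lower there too, and of the 43 higher ones 39 were higher. These barcodes are part of the members and were set against the same comparison barcodes. Much of the overlap was thus fixed in advance and does not back the calls.

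Close to the limit, 251 members between 20% and 22% had a median of 7206 non-mitochondrial UMIs and levels of 332 for MALAT1, 11.1 for FN1 and 4.39 for IL32. The 352 comparison barcodes between 18% and 20% had 8287 non-mitochondrial UMIs and levels of 309 for MALAT1, 8.83 for FN1 and 6.22 for IL32.

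Transcript length, taken as the longest annotated transcript of a gene, had a weak relation to the ratio. In 5 equal groups of genes of increasing length, the median ratios were 0.925, 0.891, 0.885, 0.921 and 0.971. The group of shortest genes (435 to 1692 bases) held 46 genes called lower and 2 called higher, and the longest (5688 to 27174 bases) held 4 lower and 12 higher. Thinned to 1000 non-mitochondrial UMIs each, members had a median of 630 detected genes and comparison barcodes 676, lower in 15 of 15 hashed samples. Members too shallow for this numbered 53, and without thinning the medians were 1652.5 in members and 3208.5 in comparison barcodes.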

How the data were processed

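The deposited matrix holds raw UMI counts of 36601 genes and 10 hashtags in 5269 barcodes, from a 3' library of gene expression (10x Genomics) and its hashtag library. The matrix header names Cell Ranger 5.0.1. A different version, Cell Ranger 2.1.1, with GRCh38 stands in the submitters' processing notes, and the conflict was not resolved. The sources used here do not state how barcodes were called. UMI counting collapses PCR copies and 3' counting sees mostly transcript ends.

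From these counts, levels per 10000 non-mitochondrial UMIs were standardised within 15 hashed samples (at least 30 comparison barcodes and 10 members each), in Python 3.11.15 with numpy 2.4.6, scipy 1.17.1 and pandas 2.3.3. No p-value was computed, because barcodes of 1 pool are not replicates and were chosen by their own counts. The calling rule was also run on counts simulated from the comparison barcodes with set changes in some genes. Those counts did not copy the members' mix of mitochondrial shares, so they cannot show how the calls fare with that mix. Intervals cover counting error at 95%. The genes named were the 12 lowest and 12 highest called, plus up to 4 of highest level in each of 31 lists, leaving out clone-based symbols, copies of mitochondrial genes and Y-linked genes. Called members of lists were named as well after their values were seen. A called gene of the secreted and membrane protein list is not reported here. Members and lists were chosen with earlier results of these data known. Positions are from GENCODE 29 (GRCh38), matched by ID for 34616 genes. Doublets were not called, and barcodes with no clear hashtag pair (119 members) were left out of ratios. Alternatives covered thresholds, totals, depth matching, filters and leaving out each hashed sample.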

Additional observations from a re-analysis of the deposited data

Results flagged for a closer look

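A signal appeared in barcodes outside both classes. The 258 barcodes with over 20% mitochondrial share and under 500 genes had a MALAT1 level of 2031.58 per 10000 non-mitochondrial UMIs, with a median mitochondrial share of 72.0% and a median of 480.5 non-mitochondrial UMIs. Their ribosomal protein level was 759 and their FN1 level 16.4. A clear hashtag pair was found in 226 of them. Their part in the results was not tested.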

How the results depend on the processing

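With the main settings 161 genes were lower and 43 higher. The counts lower and higher were 948 and 412 for members over 30%, 247 and 102 against comparison barcodes of at most 10%, 863 and 13 with all gene UMIs as total, 53 and 94 when centred on the median gene, 380 and 169 with means over barcodes, 285 and 140 at a mean level of at least 0.2, 646 and 788 with no filter, and 2 and 7 at 2-fold. Members of 20 to 30% gave 114 and 25, an alternative chosen after seeing the data, as were the total without mitochondrial copies (143 and 47) and the set without the 4 smallest hashed samples (166 and 42). Leaving out 1 hashed sample gave 151 to 166 lower and 40 to 45 higher, and a share of 27.2 to 28.1%. Called genes were lower in 78.9% of cases in the main fit, 98.5% with all gene UMIs and 36.1% when centred.

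The ratio of nuclear long noncoding RNAs was 4.56 over 30%, 1.78 with at least 1000 genes, 1.68 with all gene UMIs, 3.13 with means over barcodes and 1.37 at 20 to 30%. Cytosolic mRNAs gave 0.540 over 30%, 0.687 with all gene UMIs, 0.943 centred, 0.726 with means and 0.971 at 20 to 30%. Secreted and membrane protein mRNAs gave 1.41, 0.922, 1.26, 1.23 and 1.09 in the same order, and mitochondrial ribosome and import genes 0.613, 0.645, 0.886, 0.717 and 0.881. The IFN-gamma list gave 0.917 over 30% and 0.588 with all gene UMIs, where the NF-kB list gave 0.603. The share of high mitochondrial share barcodes was 52.1% at a limit of 15%, 17.3% at 25% and 12.9% at 30%. UBE2C reversed to 1.70 in the depth-matched comparison. The cause of these changes was not tested, beyond the fact that each total or limit is itself part of the ratio. Members and comparison barcodes were paired within hashed samples throughout, and no test was run on these pairs, since the classes were chosen by their own counts. Members' counts of 139926 UMIs in the smallest hashed sample limit single genes at low levels.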

Other observations

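The 166 barcodes with at most 20% mitochondrial share and under 1000 genes had a median mitochondrial share of 5.07%, a median of 862 non-mitochondrial UMIs and a MALAT1 level of 728. Their NEAT1 level was 65.2 and their FN1 level 10.2, beside 55.4 and 13.4 over all members of hashed samples. The 119 members without a clear hashtag pair had a median mitochondrial share of 26.3%, a MALAT1 level of 487, an FN1 level of 12.7 and a ribosomal protein level of 1547.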
